A study of Drosophila melanogaster with 6 samples.

Results

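The vacuolar H+ ATPase (V-ATPase) is a rotary proton pump that acidifies endosomes, lysosomes and secretory vesicles, and in some epithelia it sits in the plasma membrane. Its cytoplasmic V1 sector hydrolyses ATP, and its membrane V0 sector carries the protons. In Drosophila most subunits have several paralogous genes, many of them used mainly in the testis, while epithelia such as the Malpighian tubule use a single main paralog of most subunits. The pump and its assembly factors Rbcn-3A and Rbcn-3B are known to be needed for Notch signalling in the fly, and Notch drives the enteroblast fate in the midgut. Genes were chosen by symbol alone (Vha followed by a digit or a capital letter), which gave 33 of the 17321 genes measured. They fall into 15 subunits, with 8 subunits and 13 genes in V1, 5 subunits and 18 genes in V0, and 2 accessory subunits with 1 gene each. Each gene was followed by its transcript of highest mean value.

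Enteroblasts (EBs) are undifferentiated cells that arise from intestinal stem cells and mature mainly into enterocytes. EBs were sorted as GFP-positive cells from the anterior midgut of females kept for 16 to 18 days as adults at 25 °C, and their messenger RNA was amplified linearly and sequenced. There were 3 control libraries and 3 Sox21a libraries, each from a separate pool of flies. The comparison asks which genes change when EBs lack Sox21a, a SOX family transcription factor. Control flies are given as wild-type by the sample labels and as heterozygous Sox21a/+ by the methods, and the Sox21a flies are homozygous mutants. All flies carried Su(H)GBE-Gal4 and UAS-CD8::GFP, so the sort followed a Notch-responsive driver. The mutant alleles made in the study have a small frameshift deletion in the DNA-binding domain, and the description of the sort does not say which of them was used.

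The values are exonic reads of a transcript over a size factor, called normalised reads here. Counted in the smallest step of each library, the control libraries held 37286049 to 42961209 and the Sox21a libraries 38646207 to 45955837. No value lay below 2 steps, so a value was read as detected only when it lay more than 3 steps above that, a limit of 4.92 to 5.58 normalised reads for counting error only. Sox21a itself had 14123, 17337 and 16781 normalised reads in the control libraries and 14474, 14697 and 19025 in the Sox21a libraries. A frameshift leaves most of that transcript in place, so its level does not check the labels. Markers were called by the limma test given below, in which 24.2% of all genes tested were called higher and 10.2% lower. Of 7 enteroblast and stem cell markers 3 fell, and their summed level was 74609 to 98822 in control EBs and 40930 to 56157 in Sox21a EBs. Of 7 enterocyte markers 5 fell (sums of 58362 to 97392 and 26190 to 29917). Of 4 enteroendocrine markers tested 1 rose and 1 fell (sums of all 7 of 522 to 900 and 883 to 2734), and of 4 Malpighian tubule markers 1 rose (sums of all 9 of 67.2 to 96.2 and 97 to 183). That marker was Uro, which at a control mean of 3.21 passed the filter on low values only through its Sox21a libraries. The 6 haemocyte markers summed to 241 to 280 and 111 to 133, nearly all from srp, which fell, and the 6 visceral muscle markers to 37.2 to 69.2 and 57 to 79.7. CapaR, Lkr, Oatp58Dc and He were at the smallest value in every library. The part of these markers in the V-ATPase values was not tested. In bulk samples, fewer cells of a type and less RNA per cell cannot be told apart.

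Vha100-2 fell and its paralog Vha100-1 rose in Sox21a EBs, both of them genes of subunit a. Of the 16 V-ATPase genes with a mean of at least 1000 normalised reads, a limit chosen after the values were seen, 13 had a 95% interval of the fold within a 2-fold change in either direction. That was on the authors' scaling, where the exceptions were Vha100-1, Vha100-2 and VhaM8.9, and no share of all genes is given for it. After rescaling the log2 intervals of Vha100-1 (0.25 to 0.96) and VhaM8.9 (0.0033 to 0.76) lay within 2-fold too. The rescaled interval of Vha100-2 (-1.47 to -0.76) did not. Of all 33 genes, 22 had a mean of at least 10 normalised reads and were tested by limma with Benjamini-Hochberg adjustment over 11400 transcripts. Of these 22, 4 rose in Sox21a EBs (Vha68-1, Vha68-3, Vha100-1 and VhaM8.9), and Vha100-2 fell. Vha68-3, with a control mean of 8.07, passed the filter on low values only through its Sox21a libraries, so its call is no support for the count. Over the 9571 genes tested in the same way, 24.2% were called higher and 10.2% lower. On the authors' scaling the groups of libraries did not overlap for 11 of the 22, with 10 higher and 1 lower in Sox21a EBs, where 35.8% and 15.2% of all genes lay in those classes. The median log2 fold change was 0.13 over the 22 and 0.24 over all genes. That common shift of all genes fell to 0.04 when the libraries were rescaled by median-of-ratios factors, and the median of the 22 became -0.07. After rescaling, 1 of the 22 was called higher (Vha100-1) and 1 lower (Vha100-2), against 17.1% and 15.2% of all genes. With the replicate number as a block, Vha13 also rose, for 5 higher and 1 lower, against 26.0% and 10.8% of all genes. The 4 rises were not all kept with a library left out, since leaving out each in turn gave 0 to 3 higher. Over all genes those fits called 1398 to 3033 higher, beside 2316 of 9571 with every library. The count of 0 (limma) was without Sox21a replicate 2, where 4 were higher at an unadjusted p under 0.05. That fit called 1398 of 9548 genes higher, and no share of all genes is given at an unadjusted p.

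**Figure D1:**
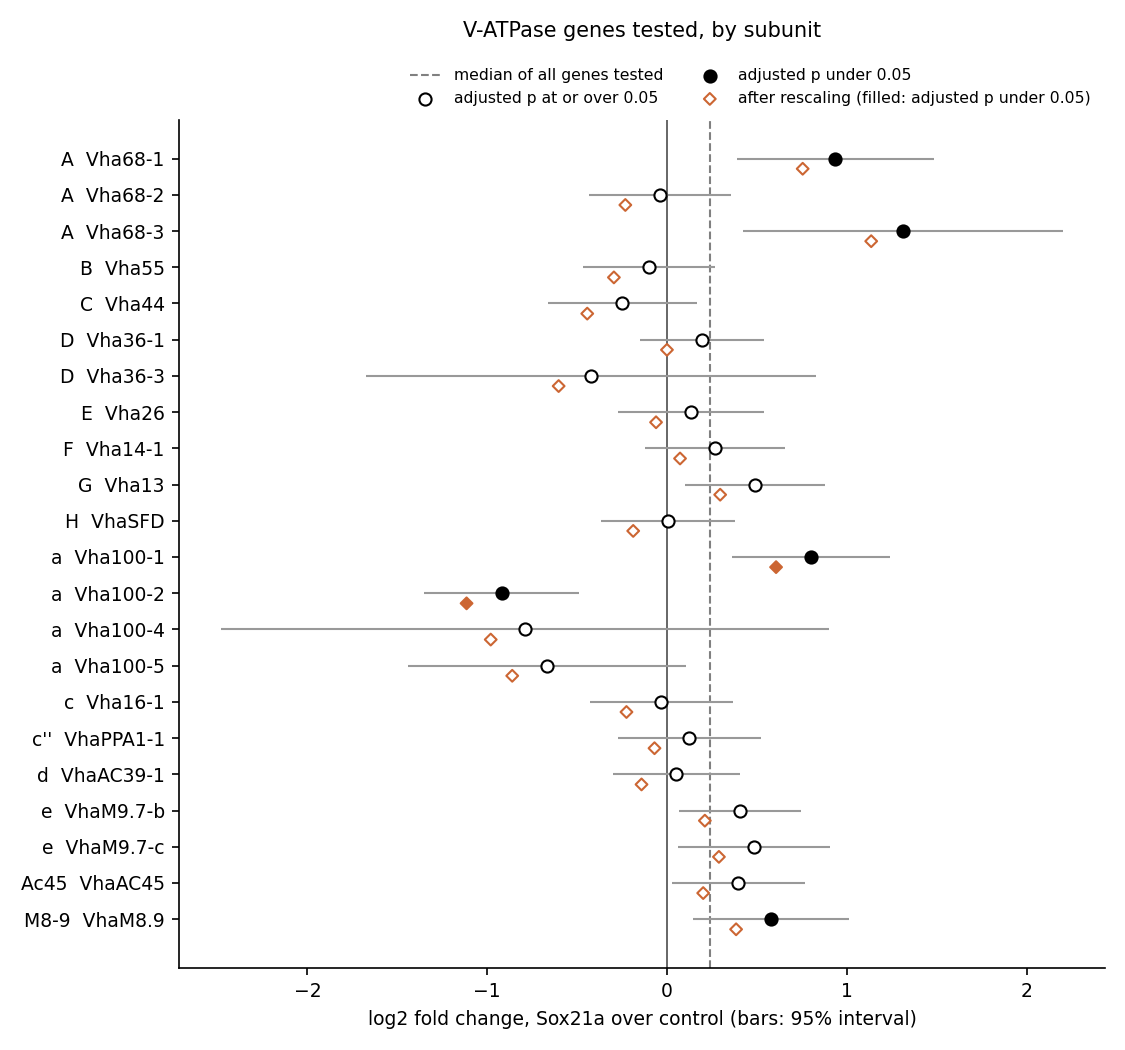
Log2 fold change of the 22 tested V-ATPase genes, Sox21a over control, grouped by subunit on the vertical axis, with the 95% interval from limma as bars (n = 3 libraries a group). Orange diamonds are the values after rescaling, and the dashed line is the median of all genes at 0.24. Vha100-1 at 0.80 and Vha100-2 at -0.92 stay past the adjusted p of 0.05 on both scalings.

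Subunit a is the large membrane subunit that forms the path of the protons beside the c ring and is known to carry the signals for where the pump is placed. It was the only subunit with paralogs called in opposite directions. Vha100-2 (chromosome 3R, 18390323 to 18399169, minus strand) had 4026, 3796 and 4725 normalised reads in the control libraries and 1863, 2193 and 2602 in the Sox21a libraries. Every Sox21a library lay below every control library. The group means were 4182 ± 484 and 2219 ± 370 (SD, n = 3 each). This was a log2 fold change of -0.92 with a standard error of 0.18 (limma, adjusted p = 0.0087). It was called lower with each library left out (-1.04 to -0.80) and after rescaling (-1.12, limma adjusted p = 0.0026).

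Vha100-1 (chromosome 3R, 29131193 to 29137980, plus strand) encodes the a subunit best known from neurons, where it is found on synaptic vesicles. It had 1208, 1106 and 1449 normalised reads in the control libraries and 1891, 2082 and 2598 in the Sox21a libraries. The lowest Sox21a library lay above the highest control library. Its mean rose 1.75-fold, from 1255 ± 176 to 2190 ± 366 (SD, n = 3 each), with a log2 fold change of 0.80 and a standard error of 0.19 (limma, adjusted p = 0.017). After rescaling the log2 fold change was 0.61 (limma, adjusted p = 0.023). The call was lost without Sox21a replicate 2 (limma, adjusted p = 0.053) and without control replicate 2 (0.057), while the log2 fold change stayed between 0.67 and 0.91 over the 6 fits. Its transcript shares 11 bases with Alg13 on the other strand, and Alg13 itself had 44.7 to 91.0 normalised reads over the 6 libraries.

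The ratio of the pair within a library does not depend on the size factor. Vha100-2 divided by Vha100-1 was 3.33, 3.43 and 3.26 in the control libraries and 0.985, 1.05 and 1.002 in the Sox21a libraries. Control EBs thus had 3.34 ± 0.09 reads of Vha100-2 per read of Vha100-1, and Sox21a EBs had 1.01 ± 0.04 (SD, n = 3 each). The log2 ratio differed by -1.72, with an exact permutation p of 0.10 (two-sided, unpaired), the smallest that 3 against 3 can give. Paired by replicate number, the exact permutation p was 0.25, the smallest that 3 pairs can give. This pair was chosen after its values were seen. With any library left out the difference was between -1.75 and -1.70. Both genes were highest in replicate 3 of each group, and the ratio varied less within a group than either gene did.

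**Figure D2:**
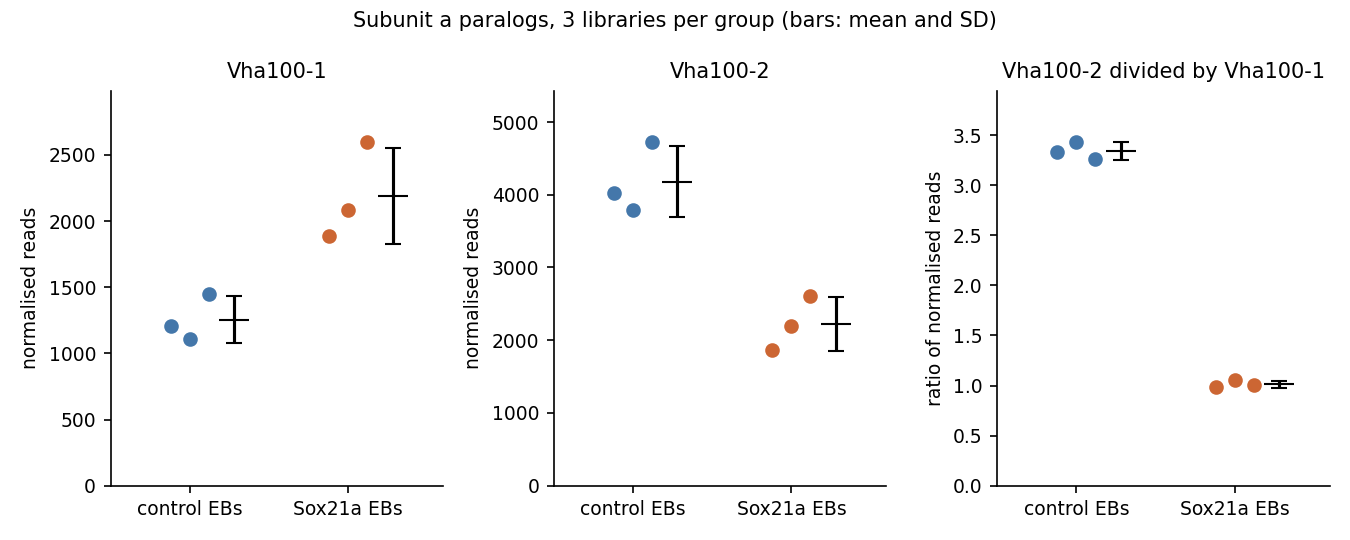
Normalised reads of Vha100-1 (left) and Vha100-2 (middle) and the ratio of the latter to the former (right) in each of 3 control and 3 Sox21a libraries, with the mean and SD beside the points. The ratio is near 3.34 in control EBs and near 1.01 in Sox21a EBs, and the groups do not overlap in any panel.

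Per kilobase of transcript, Vha100-2 held 73.1, 67.1 and 70.3% of the reads of subunit a in the control libraries and 44.8, 47.2 and 47.8% in the Sox21a libraries. Vha100-1 held 22.3, 19.8 and 21.9% in the control libraries and 46.1, 45.5 and 48.4% in the Sox21a libraries. The share of Vha100-1 was thus higher by 25.3 percentage points and that of Vha100-2 lower (a difference of -23.6 points). Each had an exact permutation p of 0.10 unpaired and 0.25 paired by replicate number, the smallest possible for each. Among 15 paralog shares compared in this way over all subunits, these were the largest differences. In every other subunit with several genes, a single paralog held 96.4% or more on average in control EBs. Those shares could hardly move, so this rank is no support for a change particular to subunit a. Summed over its 5 genes, subunit a had 1809, 1859 and 2208 normalised reads per kilobase in the control libraries and 1367, 1525 and 1789 in the Sox21a libraries, a ratio of 0.797. The highest Sox21a library lay just below the lowest control library.

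**Figure D3:**
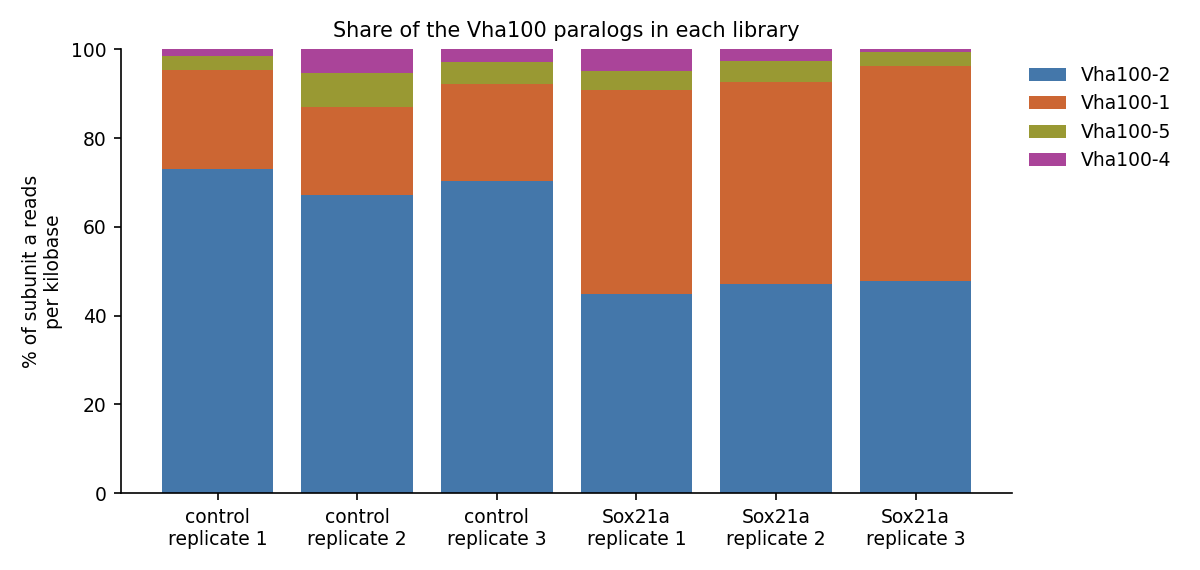
Share of the normalised reads per kilobase of subunit a held by 4 Vha100 paralogs in each library, with Vha100-3, at the smallest value throughout, not drawn. Vha100-2 takes 67.1 to 73.1% in the 3 control libraries and 44.8 to 47.8% in the 3 Sox21a libraries.

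The remaining a subunits were weaker and more variable. Vha100-4 lies next to Vha100-2 on chromosome 3R (18386841 to 18389805, minus strand) and is known mostly from the midgut. Its values were 69.3, 271 and 167 normalised reads in the control libraries and 185, 105 and 30.5 in the Sox21a libraries, so the groups overlapped. Its log2 fold change of -0.79 had a 95% interval from -2.48 to 0.90 (limma, adjusted p = 0.42). The 3 copper cell markers, from the acid-secreting cells of the middle midgut, summed to 592 to 675 in control EBs and 391 to 415 in Sox21a EBs, and their part in the values of Vha100-4 was not tested.

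Vha100-5 (chromosome 2L, 11738948 to 11744524, plus strand) had 155, 383 and 298 normalised reads in the control libraries and 150, 193 and 151 in the Sox21a libraries. Control replicate 1 lay among the Sox21a libraries, and the log2 fold change was -0.67 (limma, adjusted p = 0.15). Without that library the log2 fold change was -1.04 (limma, adjusted p = 0.0083). An antisense gene, asRNA:CR44144, covers 397 of the 2686 bases of its transcript and had 152, 395 and 315 normalised reads in the control libraries and 135, 175 and 156 in the Sox21a libraries. The library kit does not mark strand, so the reads of this pair cannot be told apart where they overlap. Vha100-3 was at the smallest value of every library.

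Subunit A, which holds the catalytic ATP-binding site of V1 together with subunit B, was carried almost wholly by Vha68-2 (chromosome 2L, 12974322 to 12978607, plus strand). That gene had 12789, 13540 and 15283 normalised reads in the control libraries and 11689, 13645 and 15324 in the Sox21a libraries. The groups overlapped over nearly their whole range, and the interval of the fold ran from 0.741 to 1.28 (limma, adjusted p = 0.87). Vha68-2 held 99.7 to 99.9% of the subunit's reads per kilobase on average in both groups.

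Both minor A paralogs rose from levels near the detection limit. Vha68-1 (chromosome 2L, 13000770 to 13004107, minus strand) had 11.4, 12.3 and 10.3 normalised reads in the control libraries and 31, 22 and 16.7 in the Sox21a libraries. Its log2 fold change was 0.94 with a standard error of 0.23 (limma, adjusted p = 0.020), and 0.75 after rescaling (limma, adjusted p = 0.069). Vha68-3 (chromosome 2L, 12978786 to 12981293, plus strand), the direct neighbour of Vha68-2, had 5.17, 5.58 and 13.4 normalised reads in the control libraries and 15, 18 and 28.5 in the Sox21a libraries. Control libraries 1 and 2 were at the detection limit, and every Sox21a library lay above every control library. The log2 fold change of 1.31 (standard error 0.38; limma, adjusted p = 0.034) became 1.13 after rescaling (limma, adjusted p = 0.052). Of the 6 fits with a library left out, 3 kept the call of Vha68-1 and 1 that of Vha68-3. How reads that match several paralogs were counted is not given in the sources used here, and Vha68-1 and Vha68-3 had 0.0784 and 0.0574% of the subunit's reads per kilobase in control EBs.

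The other V1 subunits did not pass the test in either direction. Vha55, the single gene of the B subunit, had 11941, 12324 and 13036 normalised reads in the control libraries and 10359, 11334 and 13221 in the Sox21a libraries. Its fold had an interval of 0.723 to 1.20. After rescaling its groups lay apart, at 12309 to 14128 in control and 10042 to 11560 in Sox21a libraries (log2 fold change -0.30; limma, adjusted p = 0.13). Vha44, for the C subunit that bridges V1 and the stator of V0, had 10067, 11564 and 13094 in the control libraries and 8513, 9633 and 11051 in the Sox21a libraries. Here the groups overlapped as well, with a log2 fold change of -0.25 (limma, adjusted p = 0.30), and -0.44 after rescaling (limma, adjusted p = 0.072). All 4 of its transcripts in the table gave log2 fold changes of -0.25 to -0.04 on the authors' scaling.

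The central stalk of V1 is made of D and F. Vha36-1, the main D gene, had 10933, 9782 and 11135 normalised reads in the control libraries and 11663, 11630 and 13121 in the Sox21a libraries. Vha14-1, the main F gene, had 4668, 4173 and 4751 in the control libraries and 4846, 5186 and 6402 in the Sox21a libraries. Neither passed, with log2 fold changes of 0.19 (limma, adjusted p = 0.33) and 0.27 (limma, adjusted p = 0.25). The groups of both genes lay apart on the authors' scaling and overlapped after rescaling, where the log2 fold changes were -0.0012 and 0.07 (limma, adjusted p = 0.99 and 0.70). A second D gene, Vha36-3, was near the detection limit, at 5.17, 15.6 and 16.5 in the control libraries and 6, 5 and 16.7 in the Sox21a libraries.

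The outer stalks hold subunits E and G, and H regulates the coupling of V1 to V0. Vha26, the E gene, had 19264, 19190 and 22972 normalised reads in the control libraries and 19726, 21716 and 26115 in the Sox21a libraries. VhaSFD, the H gene, had 9357, 10730 and 11467 in the control libraries and 9537, 10677 and 11437 in the Sox21a libraries. Neither differed beyond the spread between libraries, with log2 fold changes of 0.13 and 0.01 (limma, adjusted p = 0.58 and 0.98). Vha13, the G gene on chromosome 3R (19643018 to 19644386, minus strand), had 3249, 3465 and 3907 in the control libraries and 4415, 4827 and 5707 in the Sox21a libraries. Its groups did not overlap, and the log2 fold change of 0.49 had an adjusted p of 0.057 (limma) without the block of replicate numbers and 0.039 with it. After rescaling its log2 fold change was 0.29 (limma, adjusted p = 0.15).

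The proton-carrying ring of V0 is built from subunit c and the related c''. Vha16-1 was the most abundant V-ATPase transcript, at 49150, 57711 and 58815 normalised reads in the control libraries and 47928, 52079 and 62549 in the Sox21a libraries. VhaPPA1-1, the main c'' gene, had 9829, 10174 and 10923 in the control libraries and 9730, 10888 and 13340 in the Sox21a libraries. VhaAC39-1, the main gene of subunit d that joins the ring to the central stalk, had 5517, 5845 and 6436 in the control libraries and 5613, 6239 and 6599 in the Sox21a libraries. Each of these genes overlapped between the groups, with fold intervals of 0.742 to 1.29, 0.827 to 1.44 and 0.811 to 1.32.

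Subunit e, a small membrane protein of V0, had a strong and a weaker gene. VhaM9.7-b (chromosome 3L, 21539862 to 21541215, plus strand) had 10775, 9930 and 10750 normalised reads in the control libraries and 13240, 13298 and 15132 in the Sox21a libraries. VhaM9.7-c (chromosome 3L, 4186018 to 4186865, minus strand) had 573, 408 and 414 in the control libraries and 619, 650 and 655 in the Sox21a libraries. Both missed the threshold, with log2 fold changes of 0.40 (limma, adjusted p = 0.066) and 0.48 (limma, adjusted p = 0.076), and of 0.21 and 0.29 after rescaling (limma, adjusted p = 0.20 and 0.21). The groups of VhaM9.7-b lay apart on both scalings, while those of VhaM9.7-c overlapped after rescaling. VhaM9.7-b passed with no filter on low values (adjusted p = 0.030) and with the trend option of limma (adjusted p = 0.023). Without control replicate 1, VhaM9.7-c passed at 0.64 (limma, adjusted p = 0.011). VhaM9.7-b held 96.4 ± 0.60% of the subunit's reads per kilobase in control EBs and 96.2 ± 0.23% in Sox21a EBs (SD, n = 3 each).

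Of the accessory subunits, which help assembly and sorting of the pump, VhaM8.9 rose and VhaAC45 did not pass the test. VhaM8.9 (chromosome 3R, 9260638 to 9262590, plus strand) is the fly orthologue of ATP6AP2, known in mammals as the prorenin receptor. It had 4919, 5353 and 5961 normalised reads in the control libraries and 6913, 7641 and 9880 in the Sox21a libraries, with no overlap. Its mean rose 1.51-fold, from 5411 ± 523 to 8145 ± 1546 (SD, n = 3 each), with a log2 fold change of 0.58 and a standard error of 0.19 (limma, adjusted p = 0.048). That call was lost after rescaling (0.38; limma, adjusted p = 0.11) and with any library left out (limma, adjusted p of 0.063 to 0.12). VhaAC45, the orthologue of ATP6AP1, had 5414, 4921 and 5804 in the control libraries and 6385, 6969 and 7896 in the Sox21a libraries, again with no overlap. Its log2 fold change of 0.39 did not pass (limma, adjusted p = 0.091), and was 0.20 after rescaling (limma, adjusted p = 0.25). It passed with the trend option of limma (adjusted p = 0.038).

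The 11 genes under the filter ranged from 1.97 to 12.3 normalised reads, and 6 of them were at or under the detection limit in every library. They were Vha36-2, Vha14-2, Vha100-3, Vha16-2, Vha16-3, Vha16-4, Vha16-5, VhaPPA1-2, VhaAC39-2, VhaM9.7-a and VhaM9.7-d, all of them minor paralogs. VhaM9.7-a was at the smallest value in all 3 control libraries and at 6, 8 and 5.90 in the Sox21a libraries, just above the limit. Vha14-2 reached 12.3 in control replicate 2 and no more than 3.10 elsewhere. The 16 genes with a mean of at least 1000, from 1722 to 54705, included a single gene for each of the 15 subunits except a, which had a pair of them.

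Levels of the subunits were compared per kilobase of transcript, with the paralogs of a subunit summed. In order of the mean over the 6 libraries, subunit c had 19324 normalised reads per kilobase, e 18101, D 10705, E 9474, c'' 8003, F 7596, G 6062, A 5528, H 4891, M8-9 4617, B 4528, d 3374, Ac45 3290, C 2749 and a 1759. Only 2 neighbours in that order were separate over all libraries, e from D and B from d. At each end the spread was wide, with 16931 to 22093 for c and 1367 to 2208 for a. Per kilobase, subunit a was the lowest in both groups, at 1959 ± 217 in control EBs and 1560 ± 213 in Sox21a EBs (SD, n = 3 each). This order rests on dividing by transcript length, and whether reads of the amplified RNA scale with length was not tested. Undivided, Vha100-2 alone had a mean of 4182 normalised reads in control EBs beside 3540 for Vha13 of G, and 2219 beside 4983 in Sox21a EBs. On the authors' scaling, where the median log2 fold change of all genes was 0.24, the highest ratios of Sox21a to control were 1.51 for M8-9, 1.41 for G, 1.33 for e and 1.32 for Ac45. After rescaling the log2 fold changes of their main genes were 0.38, 0.29, 0.21 and 0.20. None of these was called after rescaling (limma, adjusted p of 0.11 to 0.25).

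**Figure D4:**
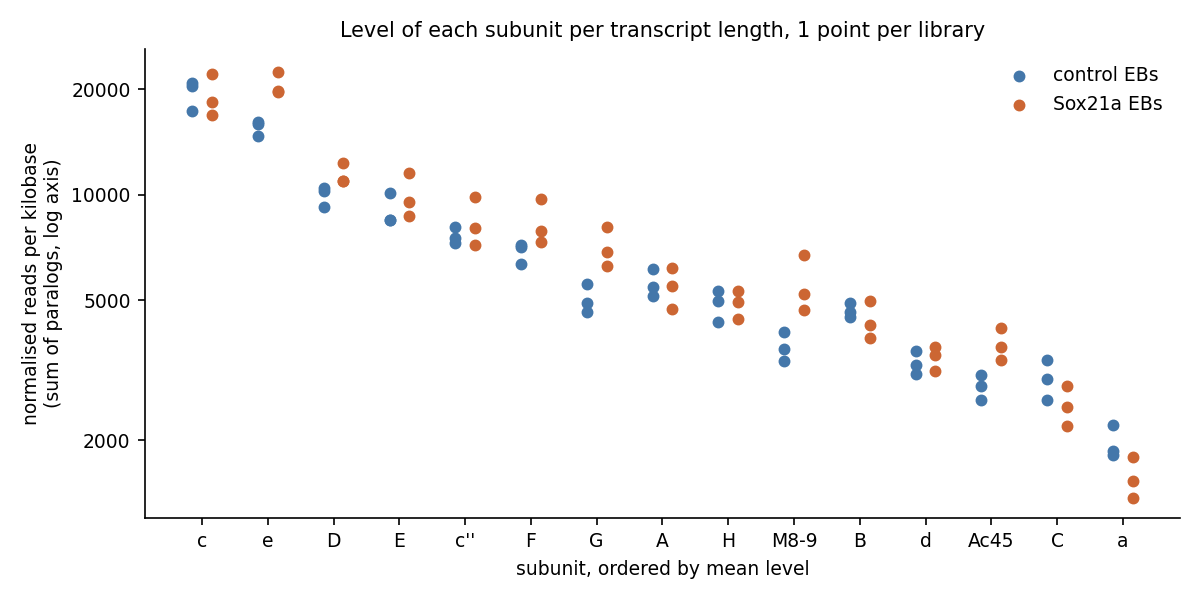
Normalised reads per kilobase of each subunit (paralogs summed, log axis), 1 point per library, for 3 control (blue) and 3 Sox21a (orange) libraries, ordered by the mean over all 6. Subunit c is at 16931 to 22093 and subunit a at 1367 to 2208.

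Summed over all 33 genes, the V-ATPase took 0.510 ± 0.010% of the reads of control libraries and 0.530 ± 0.025% of those of Sox21a libraries (SD, n = 3 each; 1 transcript per gene). The ranges were 0.499 to 0.519% and 0.509 to 0.558%, so they overlapped. V1 genes summed to 87601 ± 7118 normalised reads in control EBs and 90651 ± 10951 in Sox21a EBs, and V0 genes to 88322 ± 6441 and 90894 ± 11541 (SD, n = 3 each). On the authors' scaling the accessory genes summed to 10275 to 11765 in control EBs and 13298 to 17776 in Sox21a EBs, without overlap, a ratio of 1.41. Of the tested genes, 10 lie on chromosome 3, which also carries Sox21a, and 12 lie elsewhere. Among the genes called, Vha68-1 and Vha68-3 lie on chromosome 2, and Vha100-1, Vha100-2 and VhaM8.9 on chromosome 3. Variants linked to the mutation and the loss of Sox21a cannot be told apart for genes on that chromosome.

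The genes that assemble or regulate the pump had a lower median than the pump's own genes. Of 7 tested by limma, 2 fell and 0 rose (3 and 0 after rescaling; 3 lower and 1 higher at an unadjusted p under 0.05 on either scaling), with a median log2 fold change of -0.33 beside 0.24 for all genes. At the adjusted p, 10.2% of all genes were called lower, and 15.2% after rescaling, and no share of all genes is given at an unadjusted p. Leaving out each library gave 1 to 2 lower in the list. The larger fall was in mtd, a TLDc domain gene of the family whose mammalian members bind the V-ATPase. Its values were 18496, 24100 and 22492 normalised reads in the control libraries and 8288, 10053 and 12443 in the Sox21a libraries. Every Sox21a library lay below every control library (log2 fold change -1.09, standard error 0.20; limma, adjusted p = 0.0065), and each fit with a library left out kept the call.

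Rbcn-3A and Rbcn-3B encode the fly rabconnectin complex, which promotes the joining of V1 to V0. Rbcn-3B had 1556, 2203 and 1967 normalised reads in the control libraries and 1070, 1182 and 1467 in the Sox21a libraries. It fell by 0.62 on the log2 scale (limma, adjusted p = 0.048), and 2 of the 6 fits with a library left out kept the call. Rbcn-3A had 2118, 2989 and 3188 in the control libraries and 1759, 2065 and 2808 in the Sox21a libraries, with overlapping groups (log2 fold change -0.33; limma, adjusted p = 0.32). Mitf, the fly orthologue of TFEB, is a transcription factor known to raise V-ATPase and lysosomal gene expression. It had 3039, 2863 and 3037 in the control libraries and 2165, 2231 and 2558 in the Sox21a libraries. Those groups did not overlap, and the log2 fold change of -0.37 (limma, adjusted p = 0.091) was -0.56 after rescaling (limma, adjusted p = 0.013).

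Genes of the lysosome, which the pump acidifies, were mixed. Of 15 tested, 5 rose and 1 fell (4 and 2 after rescaling), beside 24.2% and 10.2% of all genes (17.1% and 15.2% after rescaling). The median log2 fold change was 0.21, beside 0.24 for all genes, and leaving out each library gave 3 to 6 higher and 1 to 2 lower. Npc2a, for the protein that binds sterols in the lysosome, rose from 3326 ± 1307 to 14046 ± 1174 normalised reads (SD, n = 3 each; log2 fold change 2.15; limma, adjusted p = 0.0015). Ppt1, a palmitoyl-protein thioesterase, rose from 350 ± 59.6 to 728 ± 258 (log2 fold change 1.01; limma, adjusted p = 0.028), a call that 2 of the 6 fits with a library left out kept. Cln3, a lysosomal membrane protein, fell from 59.6 ± 8.87 to 24.2 ± 4.55 (log2 fold change -1.27; limma, adjusted p = 0.0032).

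The mitochondrial F-type ATP synthase is a related rotary enzyme that runs the other way, making ATP from a proton gradient. Of its 13 genes tested by limma, 6 rose and 0 fell (8 and 0 at an unadjusted p under 0.05), and 4 rose after rescaling. At the adjusted p, 24.2% of all genes were called higher, and 17.1% after rescaling, and no share of all genes is given at an unadjusted p. The median log2 fold change was 0.59, beside 0.24 for all genes, and leaving out each library gave 1 to 6 higher. ATPsynF rose from 1988 ± 358 to 3485 ± 585 normalised reads (SD, n = 3 each; log2 fold change 0.81; limma, adjusted p = 0.021), a call kept in 3 of the 6 fits with a library left out. ATPsynG rose from 6550 ± 397 to 10898 ± 1141 (log2 fold change 0.73; limma, adjusted p = 0.011).

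Among 16 ion transport genes that work beside proton pumps, 3 rose and 3 fell (2 and 5 after rescaling), beside 24.2% and 10.2% of all genes (17.1% and 15.2% after rescaling). The median log2 fold change was 0.14, beside 0.24 for all genes, and leaving out each library gave 1 to 3 in each direction. The largest rises were in nrv3, a beta subunit of the Na+/K+ ATPase, from 359 ± 125 to 2400 ± 569 normalised reads, and in Nha2, a cation/proton antiporter, from 90.7 ± 39.0 to 245 ± 48.5 (SD, n = 3 each). For nrv3 the log2 fold change was 2.78 (limma, adjusted p = 0.00065), and Nha2 had a limma adjusted p of 0.016. CAH2, a carbonic anhydrase, fell from 223 ± 62.9 to 49.3 ± 18.7 (log2 fold change -2.18; limma, adjusted p = 0.0019). Nha1, the paralog of Nha2, fell from 49.2 ± 14.5 to 16.0 ± 9.90 (log2 fold change -1.69; limma, adjusted p = 0.020). Of the 6 fits with a library left out, 4 kept the call of Nha2 and 3 that of Nha1.

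The V-ATPase is known to act with the Ragulator and Rag GTPases in placing TORC1 on the lysosome. Of 11 genes of that machinery tested by limma, 3 rose and 0 fell (4 and 1 at an unadjusted p under 0.05), beside 24.2% and 10.2% of all genes. Those shares are at the adjusted p, and no share of all genes is given at an unadjusted p. The median log2 fold change was 0.34, beside 0.24 for all genes, and leaving out each library gave 0 to 5 higher and 0 to 1 lower. RagA-B rose from 784 ± 77.5 to 1166 ± 70.7 normalised reads, and Lamtor2, a Ragulator subunit, from 1767 ± 262 to 2616 ± 108 (SD, n = 3 each). Their log2 fold changes were 0.58 and 0.57 (limma, adjusted p = 0.025 and 0.032), and each call was kept in 1 of the 6 fits with a library left out. After rescaling 0 of the 11 were called higher (3 at an unadjusted p under 0.05), and 1 was called lower (FLCN, at -0.64; limma, adjusted p = 0.045), beside 17.1% and 15.2% of all genes.

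**Figure D5:**
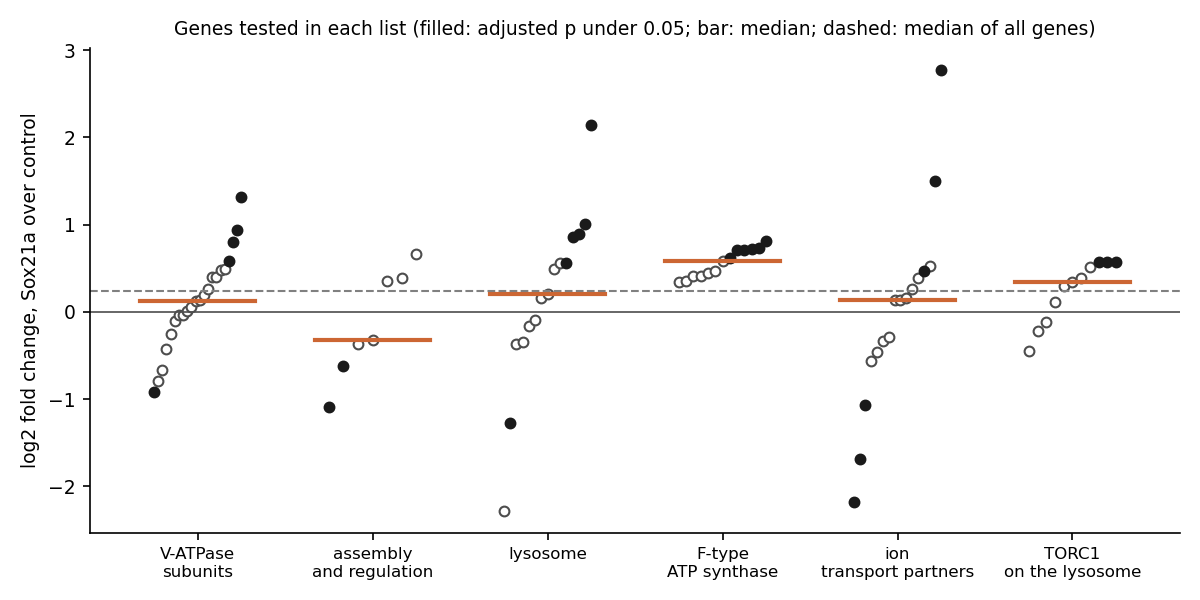
Log2 fold change, Sox21a over control, of every gene tested among the V-ATPase subunits and in 5 related lists, with filled points at an adjusted p under 0.05 (limma, n = 3 libraries a group). Orange bars are the medians, 0.13 for the V-ATPase subunits, -0.33 for assembly and regulation and 0.59 for the F-type ATP synthase, and the dashed line is the median of all genes at 0.24.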

How the data were processed

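RNA-seq of sorted EBs was compared between 3 control and 3 Sox21a libraries, with groups and numbers taken from sample titles. Per the methods, the authors aligned read pairs to release 6 of the Drosophila genome (Bowtie2), counted pairs in exons and divided them by 1 size factor per library, and the deposited unit is this signal per transcript, for 19674 transcripts. A deposited table of comparisons holds the authors' group means, variances, log2 fold changes and p-values before and after adjustment, and was not used. No other per-library column was found (0 left out). Every value was a whole multiple of 1 step per library, with 2 steps as the smallest, so count models were not run.

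The test was limma 3.58.1 (R 4.3.3) on log2(value + 1), which understates the change of low genes, keeping transcripts whose mean was 10 or more, with Benjamini-Hochberg adjusted p under 0.05. The authors' size factors were the main scaling, and median-of-ratios factors over transcripts averaging at least 100 were an alternative. The deviations of same-numbered libraries from their group means correlated at 0.171, 0.129 and 0.124. Those of other pairs correlated at -0.184 to 0.051. The replicate numbers may thus pair the libraries. The main limma test left them out, and the block on them was an alternative. Other alternatives were pseudocounts of 0.1 and 10, no filter, the replicate block, a limma trend, subtraction of the smallest value, 1 transcript per gene or summed transcripts, an adjusted p under 0.01, a 1.5-fold minimum and each library left out. Shares and ratios were compared by exact permutation tests without pairing (scipy 1.17.1), and pairing by replicate number was an alternative. Scripts were tested on simulated data.

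All genes matching the symbol rule are named, and from the related lists Mitf, Rbcn-3A, Rbcn-3B and the 2 largest rises and falls past the adjusted p in each list. FLCN, srp, markers at the smallest value and overlapping genes were named after their values were seen. The members and lists were chosen with earlier results of these data known. Positions, lengths and overlaps are those of Ensembl for BDGP6, which is release 6 too, where 29 identifiers were unchanged and 4 matched by symbol. VhaAC45RP, listed by its CG number at 1.97 to 5.58, fell outside the rule. Promoter and protein sequences were not analysed here.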

Additional observations from a re-analysis of the deposited data

How the results depend on the processing

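With every library, 3986 transcripts differed. The total called in each new fit was 2444 to 5060 with each library left out. It was 2486 without Sox21a replicate 1, 2444 without Sox21a replicate 2, and 1905 at an adjusted p under 0.01. How many of the 3986 kept their call was not counted. The number of V-ATPase genes called higher was 4, and it was 1 after rescaling, 2 after rescaling with the replicate block, 0 at an adjusted p under 0.01 (limma; 8 at an unadjusted p under 0.05) and 0 to 3 with each library left out (1 without Sox21a replicate 1, 0 without Sox21a replicate 2, 2 without Sox21a replicate 3, 1 without control replicate 2 and 2 without control replicate 3). With no filter it was again 4, with VhaM9.7-a and VhaM9.7-b in place of Vha68-3 and VhaM8.9. It was 6 with the trend option of limma, with Vha13, VhaAC45 and VhaM9.7-b gained and Vha68-1 lost, 5 with a pseudocount of 10 (Vha13 gained) and 3 with transcripts summed per gene or a change of at least 1.5-fold (VhaM8.9 lost). Rescaling lowers every Sox21a value against control, and a left-out library leaves fewer samples. Over all genes, 2316 of 9571 were called higher with every library, and 1398 to 3033 with each left out. The all-gene count was 1113 of 9571 at an adjusted p under 0.01, 2231 of 17321 with no filter and 2637 of 9571 with the trend option. No all-gene count is given at an unadjusted p. The number called lower was 1 throughout, except for 2 without control replicate 1. Pairing the libraries by the replicate block gave 5 higher and 1 lower and changed no call of a V-ATPase gene other than that of Vha13. In the lists it added calls for CG7071, Npc1a, ATPsyngamma, ATPsynE and Ncc69 and lost that of ClC-a, and among markers it added N and lab and lost Myo31DF. Paralog shares kept their direction for 9 of 15 genes under each alternative. The other 6 had small differences that changed sign, with left-out ranges of -1.60 to 0.62 percentage points for Vha100-4, -0.0026 to 0.0039 for Vha16-1 (-0.0020 with the smallest value subtracted), -0.030 to 0.020 for VhaPPA1-1, -0.028 to 0.043 for VhaAC39-1, -0.53 to 0.030 for VhaM9.7-b and -0.060 to 0.50 for VhaM9.7-c. Alternatives for the ratio of Vha100-2 to Vha100-1 and the block on shares were added after seeing the data. Count tests on recovered reads and promoter motifs were not run. Depth limits the 11 genes under the filter, of which VhaM9.7-a was called with no filter.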
